A study of Mus musculus with 14 samples.

Results

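Mouse macrophages from Ezh2 knockout or control mice were or were not exposed to medium from liver cancer cells. The genes described here are 36 genes of glucose metabolism and the hypoxia response. They comprise 3 membrane carriers, 15 enzymes of glycolysis and its control, 4 genes of pyruvate and lactate handling, 4 enzymes of the pentose phosphate pathway, Hif1a with 2 of the hydroxylases that act on its product, and 7 genes known as targets of that pathway. They were chosen by symbol, with earlier results of these data known. Their counts beside those of all tested genes therefore describe the list and are no test of it. All 36 were found among the 25239 symbols of the count table and among the 13311 genes with enough counts to be tested. The macrophages had been grown from the bone marrow of Ezh2fl/fl;LysM-Cre+/- mice (KO), in which the lysozyme M promoter drives Cre in myeloid cells, and of littermate controls (labelled WT, with no Cre or floxed status given). Culture lasted 7 to 10 days in DMEM that held 20% medium of L929 cells, a source of macrophage growth factor, besides horse serum (5%) and fetal bovine serum (10%). For the last 24 h they received either complete DMEM (control medium) or medium conditioned by Hepa1-6, a mouse liver cancer line (CM). There were 4 WT and 3 KO libraries in each medium. The ages of the mice are not given, and no group received medium from another cell line. Whether each library of a group stands for its own animal is not stated either, so the p-values below reflect no more than how far these samples spread, possibly for technical reasons.

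Glycolysis breaks glucose down to pyruvate in a fixed order of steps. Hexokinase traps glucose in the cell, phosphofructokinase commits it to the pathway, and the lower steps recover ATP. Lactate dehydrogenase then turns pyruvate into lactate, which leaves through monocarboxylate carriers, or pyruvate enters the mitochondria. The pentose phosphate pathway branches off at glucose 6-phosphate and supplies NADPH and ribose. HIF-1, whose alpha subunit is the product of Hif1a, activates many of these genes; prolyl hydroxylases of the Egln family mark that subunit for destruction when oxygen is present. Macrophages are known to raise glycolysis when they are activated. Ezh2 encodes the enzyme of the Polycomb complex that methylates histone H3 at lysine 27.

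Exon counts summed to 40.2 to 61.5 M (M as in mega) per library in 10 libraries and to 80.4 to 85.8 M in 4, namely libraries 3 and 4 of WT in both media. The same 4 libraries stood apart in the share of counts taken by each exon, with scores of 0.4 to 0.446 on the first principal component (46.8% of the variance over 110072 exons) against -0.199 to -0.145 in the other 10. The labels name no batch, and all 6 KO libraries fall with WT libraries 1 and 2. Genes called between KO and WT were therefore also tested against WT libraries 1 and 2 alone. As a check of the labels, 2 exons of Ezh2, identified in the table by their lengths, were set against the other Ezh2 exons. They held 94.0 to 169.5% of the counts per base of those exons in WT and 2.1 to 31.7% in KO. Counts on the 2 exons were thus reduced but not absent in KO, to an extent that varied between libraries. Summed over all exons, Ezh2 was at 19.8 to 26.2 CPM in WT and 18.2 to 18.8 CPM in KO in control medium, and at 31.4 to 38.6 and 24.6 to 28.9 CPM in CM, where CPM, the scale of all levels here, is the counts-per-million value on the TMM-scaled library total. Macrophage markers (6 genes, Adgre1 and Csf1r among them) summed to 9720 to 11700 CPM in every library, while markers of T, B and NK cells, fibroblasts, erythroid cells and hepatocytes did not exceed 3.03 CPM in any library, with the hepatocyte gene Alb at 0. Dendritic and mast cell markers reached at most 2.58 and 3.8 CPM. Genes of the cell cycle (5 genes) summed to 92 to 118 CPM in WT and 120 to 138 CPM in KO in control medium, and to 265 to 320 and 408 to 468 CPM in CM. Neutrophil markers (8 genes) summed to 13.3 to 17.1 CPM in WT and 23.1 to 24.7 CPM in KO in control medium, and to 45.1 to 49.6 and 86.7 to 94 CPM in CM; Ly6g was at 0 in every group but WT in control medium and Mpo in every group but WT in CM. The neutrophil markers did not move together. Of 5 tested, 2 were called higher and 0 lower with CM in WT (median log2 fold change -0.24), and 2 higher and 2 lower in KO (median -0.85). Both sums were highest in KO in CM, and the part of these genes in the results below was not tested. In bulk RNA, fewer cells of a type and less RNA per cell cannot be told apart.

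The start-site sequences of several members hold ACGTG, a form of the core of the hypoxia response element, which HIF-1 binds. Other forms of the core were not sought, so a gene without ACGTG may still hold one. RefSeq windows of 300 bases (250 before to 50 after a start site, GRCm38.p6) were found for 33 of the 36 genes. ACGTG lay on either strand of at least 1 window in 22 of the 33 genes (66.7%), against 29% of 10448 tested genes with windows. Per window the share was 25 of 47 (53.2%), against 25.2% of the windows of tested genes and 19.6% of all 32851. Windows of the members were of similar composition to those of all tested genes (a median of 21 against 20 CpG and 61.3 against 60.3% GC). The longer E-box CACGTG, in which the core counts once on each strand, was found in 18.2% of the members and 11.8% of tested genes. A match is a description of these letters and not a bound site. The list holds genes known as targets of HIF-1, so its higher share is no independent result. ACGTG also lay in the window of G6pdx, which fell with CM, and in 2 of 4 windows of Pfkm, which was not called. Pfkfb4 and Ldhb, which fell, and Taldo1, which was not called, held none. The 150 bases that end just before a start site are shown for 4 genes that rose and hold ACGTG, in capitals together with the C of an E-box. They are followed by 2 genes that also rose and hold no ACGTG in any of their windows. Ldha and Eno1 have further start sites that are not shown. The stretches shown are chr7:46845654-46845803 (Ldha), chrX:106186950-106187099 (Pgk1), chr12:73907717-73907866 (Hif1a), chr19:41911721-41911870 (Pgam1) and chr4:150236558-150236707 (Eno1), all on the plus strand, and chr10:78009808-78009957 (Pfkl) on the minus strand. None overlaps an exon annotated in GENCODE M21.
Ldha: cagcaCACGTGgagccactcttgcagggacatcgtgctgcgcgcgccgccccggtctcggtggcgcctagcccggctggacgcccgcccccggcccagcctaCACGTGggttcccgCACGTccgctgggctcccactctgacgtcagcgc
Pgk1: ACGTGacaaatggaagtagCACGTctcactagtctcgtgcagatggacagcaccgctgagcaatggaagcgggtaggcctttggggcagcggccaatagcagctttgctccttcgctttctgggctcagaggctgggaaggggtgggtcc
Hif1a: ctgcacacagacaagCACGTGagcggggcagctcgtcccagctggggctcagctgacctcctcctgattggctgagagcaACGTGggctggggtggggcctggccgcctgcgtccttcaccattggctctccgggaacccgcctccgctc
Pgam1: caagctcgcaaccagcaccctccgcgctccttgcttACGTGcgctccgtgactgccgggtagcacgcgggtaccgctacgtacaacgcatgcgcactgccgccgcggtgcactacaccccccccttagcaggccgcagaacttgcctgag
Pfkl: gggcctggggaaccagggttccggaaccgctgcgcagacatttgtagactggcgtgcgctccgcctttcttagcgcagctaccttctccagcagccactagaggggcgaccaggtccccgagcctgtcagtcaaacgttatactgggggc
Eno1: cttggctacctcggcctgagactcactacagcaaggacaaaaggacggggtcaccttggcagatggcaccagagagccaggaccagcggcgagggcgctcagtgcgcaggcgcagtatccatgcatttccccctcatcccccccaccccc

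The first question was how WT and KO macrophages responded to CM. Conditioned medium raised most of the pathway in both genotypes. In WT, 29 of the 36 genes rose and 3 fell (Pfkfb4, Ldhb and G6pdx), while Pfkm, Taldo1, Bnip3l and Ndrg1 did not pass the test. Calls rest on edgeR's quasi-likelihood test, with a Benjamini-Hochberg adjusted p below 0.05 over the 13311 genes. By that rule 37.3% of all tested genes were called in WT, 19.3% higher and 18% lower. The median log2 fold change of the 36 was 0.61 and that of all tested genes was -0.005559. In KO, 30 rose and the same 3 fell, with a median of 0.66; 38.1% of all tested genes were called, 20% higher and 18.2% lower. The 29 genes that rose in WT all rose in KO. The summed level of the 36 was 6512, 6550, 6056 and 5989 CPM in WT in control medium and 8901, 8625, 8400 and 8583 CPM in WT in CM. In KO it was 6710, 6919 and 6672 CPM in control medium and 9846, 9883 and 9710 CPM in CM. No library in CM fell below any in control medium, and in each medium the KO libraries all lay above the WT libraries. Scaled by library totals alone, calls over all tested genes shifted downward (from 2570 higher and 2390 lower to 1957 and 3501 in WT, and from 2659 and 2418 to 1941 and 3624 in KO, where the median of all genes moved from -0.012 to -0.119). No called member changed direction. Bnip3l, not called, went from 0.02 in both genotypes to -0.06 in WT and -0.08 in KO, Taldo1 was then called lower in KO (-0.32, adjusted p = 0.016), and the small increases of Hk1, Pfkp and Pkm in both genotypes and of Pgd in KO were then no longer called.

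**Figure D1:**
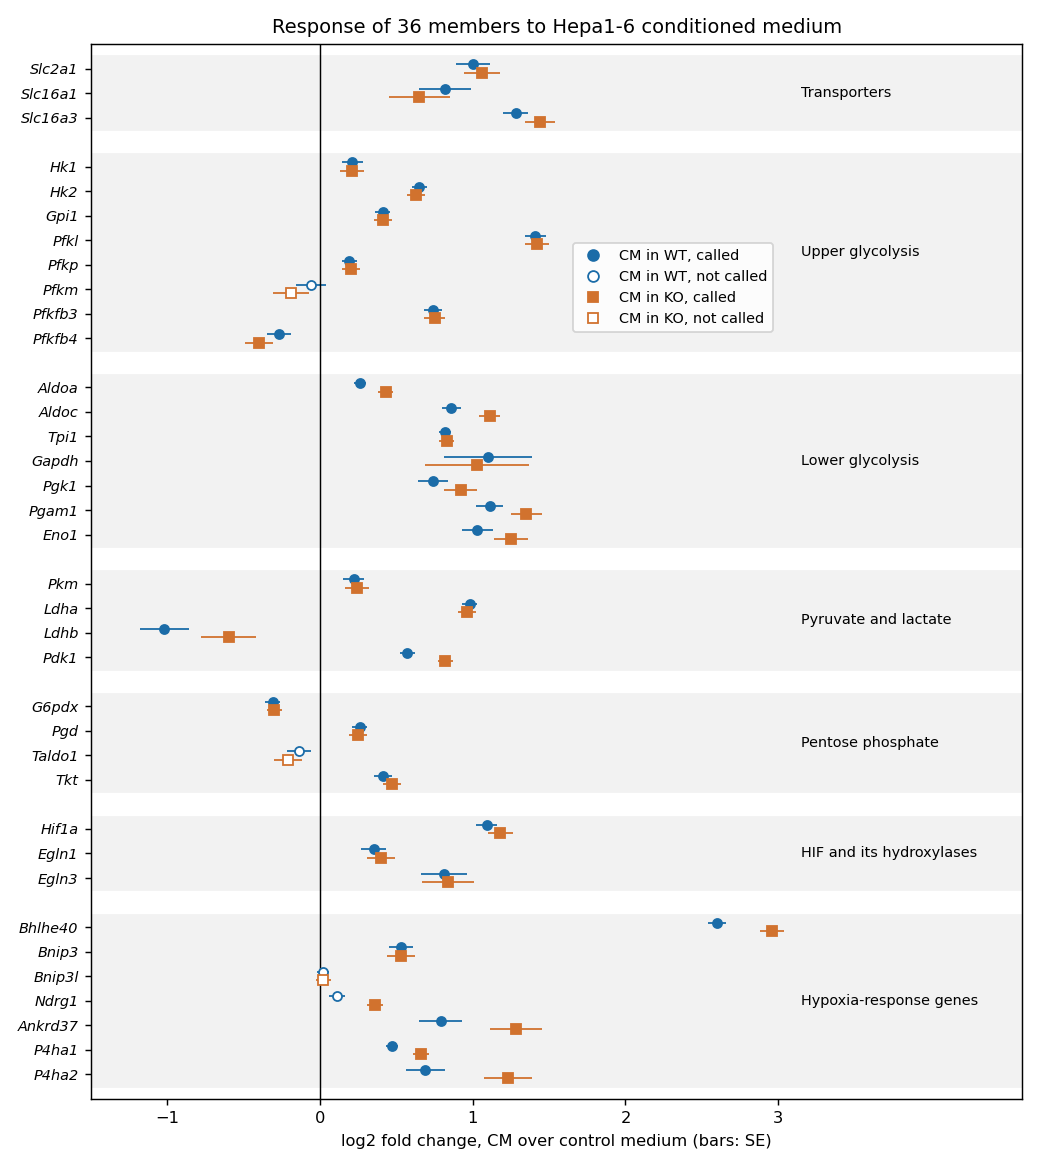
Log2 fold change of CM over control medium (horizontal axis, bars are standard errors) for the 36 genes grouped by role, in WT (circles) and KO (squares); filled symbols passed the test. Most symbols of both genotypes lie right of 0, Bhlhe40 lies farthest right, and Pfkfb4, Ldhb and G6pdx lie left of 0 in both.

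All 3 carriers rose. Slc16a3, which exports lactate, stood at 27.8, 30.8, 23.4 and 23.3 CPM in WT in control medium and at 66.9, 61.8, 61.4 and 64.2 CPM in CM. The groups did not overlap, and the log2 fold change was 1.28 ± 0.08 (approximate SE, adjusted p = 7.22e-09). Slc2a1, the basal glucose transporter, rose from 20.7, 22.1, 15.8 and 16.5 to 39.8, 42.9, 31.7 and 35.6 CPM, a change of 1.00 ± 0.11 (adjusted p = 2.19e-06). In both media WT libraries 3 and 4 were the lowest for this gene. Slc16a1, another monocarboxylate carrier, was weakly expressed, at 2.63, 2.74, 3.66 and 3.55 CPM against 4.41, 4.87, 5.95 and 7.04 CPM in CM (0.82 ± 0.17, adjusted p = 0.00132). In KO the changes were 1.44 ± 0.10, 1.06 ± 0.12 and 0.65 ± 0.20 for the 3 genes in the same order, and the last was lost when control library 1 (adjusted p = 0.086), control library 2 (0.0778) or CM library 3 (0.0707) of KO was left out.

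Of the 8 genes of upper glycolysis, 6 rose and Pfkfb4 fell in each genotype. The liver-type phosphofructokinase Pfkl rose most, from 51.8, 53.9, 43.2 and 43.7 CPM to 133.1, 132.0, 117.6 and 127.2 CPM in WT (1.41 ± 0.07, adjusted p = 3.82e-10). All CM libraries lay far above all control libraries, and KO gave 1.42 ± 0.08. The other phosphofructokinases moved little: Pfkp changed by 0.19 ± 0.05 and Pfkm, the muscle type, was not called (-0.06 ± 0.10, adjusted p = 0.671). Pfkfb3, which makes the phosphofructokinase activator fructose 2,6-bisphosphate, rose from 31.9, 31.1, 30.7 and 29.5 CPM to 50.8, 51.5, 52.8 and 51.0 CPM (0.74 ± 0.06, adjusted p = 4.4e-08). Its paralog Pfkfb4 went the other way, by -0.27 ± 0.08 in WT (adjusted p = 0.0118) and -0.40 ± 0.09 in KO (adjusted p = 0.00201), with overlapping libraries in WT. Of the hexokinases, Hk2 rose from 37.1, 37.9, 36.2 and 38.0 CPM to 59.6, 55.8, 57.5 and 60.5 CPM (0.65 ± 0.05, adjusted p = 9.87e-08). Hk1 rose by 0.21 in both genotypes, a call that was lost in WT without control library 2 (adjusted p = 0.0526) or CM library 4 (0.0614) and in KO without any KO library other than CM library 3 (0.0601 to 0.138). Gpi1, the isomerase between them, rose by 0.41 in each genotype. In KO the change of Pfkp was not called without control library 2 (adjusted p = 0.0814) or CM library 1 (0.0558).

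Every gene of lower glycolysis rose in both genotypes, by 0.26 to 1.11 in WT and 0.43 to 1.35 in KO. Tpi1, which interconverts the triose phosphates, went from 173.0, 177.7, 172.5 and 178.3 CPM to 309.9, 305.5, 300.6 and 318.4 CPM in WT (0.82 ± 0.04, adjusted p = 5.94e-10). The media did not overlap, and WT libraries 3 and 4 did not stand apart. Pgam1, phosphoglycerate mutase, went from 190.1, 197.9, 152.1 and 153.4 CPM to 403.2, 399.7, 338.5 and 352.5 CPM (1.11 ± 0.09, adjusted p = 4.95e-08), with WT libraries 3 and 4 the lowest in each medium. The aldolase Aldoc went from 34.4, 35.7, 31.3 and 32.3 CPM to 59.3, 63.4, 55.4 and 64.4 CPM (0.86 ± 0.06, adjusted p = 2.35e-08). Eno1 (enolase) rose by 1.03 ± 0.10 in WT and Pgk1 (phosphoglycerate kinase) by 0.74 ± 0.10, while the abundant Aldoa rose by 0.26 ± 0.04. Gapdh is named because of its spread, a choice made after its values were seen: it was at 42.5, 41.8, 89.0 and 85.3 CPM in WT in control medium and at 89.9, 87.8, 180.9 and 198.3 CPM in CM. The media thus overlap over all libraries but not within libraries 1 and 2 or within 3 and 4 (1.10 ± 0.29 over all, adjusted p = 0.00717). In the annotation 36 other genes have transcripts that match Gapdh at 95% identity or more over at least 50% of its length. Most of these genes are not in the table. How reads with several matches were counted is not given in the sources used here, so the level of Gapdh is uncertain. In KO its call was lost without any control library (adjusted p = 0.0632 to 0.0716) or without CM library 3 (0.107). By the same rule Gpi1, Pgk1, Eno1, Pkm, Ldha, Ldhb, Taldo1 and Bnip3 have 1 or 2 such copies each. Of these copies only Eno1b, a copy of Eno1, is in the table. The levels and calls of these genes share that uncertainty.

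Of the 4 genes around pyruvate, Ldha, Pdk1 and Pkm rose and Ldhb fell. Ldha, the muscle-type lactate dehydrogenase subunit, went from 325.0, 347.1, 299.2 and 303.1 CPM to 662.4, 623.5, 623.4 and 603.6 CPM in WT (0.98 ± 0.05, adjusted p = 8.59e-10) and by 0.96 ± 0.06 in KO. Ldhb, the heart-type subunit, went from 6.62, 5.93, 3.78 and 5.38 CPM to 2.08, 2.91, 3.05 and 2.54 CPM (-1.02 ± 0.16, adjusted p = 0.000119). All CM libraries were below all control libraries. In KO it fell from 8.48, 6.51 and 7.47 CPM to 4.92, 5.08 and 4.78 CPM (-0.60 ± 0.18, adjusted p = 0.0165), which was not called without control library 1 (adjusted p = 0.0759) or CM library 3 (0.0526). Pdk1, the kinase that switches off pyruvate dehydrogenase, rose from 47.8, 48.4, 49.1 and 48.4 CPM to 71.8, 72.7, 69.8 and 72.8 CPM in WT (0.57 ± 0.05, adjusted p = 1.22e-07). The media did not overlap, and the standard deviations within them were 0.534 and 1.41 CPM. Pkm, pyruvate kinase, rose by 0.22 ± 0.07 in WT and 0.24 ± 0.08 in KO. The call of Pkm was lost in WT without control library 4 (adjusted p = 0.0699) or CM library 1 (0.0768), and in KO without control library 3 (0.107), CM library 1 (0.0937) or CM library 2 (0.0962).

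The pentose phosphate genes moved in different directions. G6pdx, the enzyme that opens the pathway, fell from 348.0, 358.2, 332.1 and 320.9 CPM to 277.6, 274.3, 273.9 and 268.2 CPM in WT (-0.31 ± 0.05, adjusted p = 5.76e-05) and by 0.30 ± 0.05 on the log2 scale in KO. All CM libraries were below all control libraries. The exons of G6pdx overlap those of Ikbkg on the opposite strand, and its call in KO was lost from the most-counted exon (adjusted p = 0.056). Pgd, the next dehydrogenase, rose from 502.9, 488.8, 460.3 and 451.7 CPM to 605.4, 557.0, 558.4 and 565.3 CPM (0.26 ± 0.05, adjusted p = 0.001). Tkt, transketolase of the non-oxidative branch, rose from 264.1, 284.0, 244.4 and 239.6 CPM to 351.3, 345.0, 339.5 and 332.1 CPM (0.41 ± 0.06, adjusted p = 2.77e-05). Taldo1, transaldolase of the same branch, was at -0.14 ± 0.08 in WT and -0.21 ± 0.09 in KO and was called in neither (adjusted p = 0.208 and 0.0888). With the replicate number as a block within each genotype, Taldo1 was called lower in WT (-0.14, adjusted p = 0.00707) and in KO (-0.21, adjusted p = 0.000726).

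Hif1a itself rose, from 136.6, 128.2, 157.2 and 153.7 CPM to 286.2, 304.0, 293.8 and 342.3 CPM in WT (1.09 ± 0.07, adjusted p = 6.54e-09) and by 1.18 ± 0.08 in KO. Both hydroxylases rose with it. Egln1 went from 35.7, 38.0, 42.5 and 43.4 CPM to 46.8, 46.4, 53.9 and 56.5 CPM (0.35 ± 0.08, adjusted p = 0.0017). The weakly expressed Egln3, a known target of HIF-1, went from 1.46, 1.53, 1.86 and 1.48 CPM to 2.81, 2.20, 2.93 and 3.11 CPM (0.81 ± 0.15, adjusted p = 0.000444). KO gave 0.40 ± 0.09 and 0.84 ± 0.17. In each case the libraries of the media did not overlap. These are RNA levels, and the stability of the protein on which HIF-1 activity depends was not measured.

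Among the 7 hypoxia-response genes, 5 rose in WT and 6 in KO. Bhlhe40, a transcriptional repressor, had the largest change of all 36: it went from 8.71, 7.61, 8.61 and 8.55 CPM to 52.2, 47.8, 51.8 and 51.0 CPM in WT (2.60 ± 0.06, adjusted p = 1.98e-13) and from 6.06, 6.52 and 6.00 CPM to 47.4, 46.5 and 50.6 CPM in KO (2.96 ± 0.08, adjusted p = 4.58e-13). It overlaps 0610040F04Rik on the opposite strand, and the strand setting of the counting is not given, so reads of the pair cannot be told apart. The same limit holds for Hk1 (with Hk1os), Pfkp (Pitrm1), Pfkm (Senp1), Tpi1 (Spsb2), Gapdh (Iffo1) and G6pdx (Ikbkg). P4ha1, a collagen prolyl hydroxylase subunit, rose from 89.3, 84.2, 89.6 and 90.8 CPM to 120.8, 124.3, 118.2 and 126.5 CPM (0.47 ± 0.04, adjusted p = 5.96e-07). Bnip3, which marks mitochondria for autophagy, rose from 30.01, 28, 31.7 and 34.4 CPM to 43.6, 41.8, 43.1 and 51.2 CPM (0.53 ± 0.08, adjusted p = 4.31e-05). Its paralog Bnip3l was at 108.0 to 114.8 CPM in control medium and 108.4 to 115.1 CPM in CM in WT, a change of 0.02 ± 0.04 (adjusted p = 0.719). P4ha2 and Ankrd37 rose in WT by 0.69 ± 0.13 and 0.79 ± 0.14 and in KO by 1.23 ± 0.16 and 1.28 ± 0.17. Ndrg1, a stress-induced gene, was not called in WT (0.11 ± 0.05, adjusted p = 0.0688) and rose in KO (0.36 ± 0.05, adjusted p = 6.16e-05). With the replicate number as a block it was also called in WT (0.11, adjusted p = 0.0359).

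**Figure D2:**
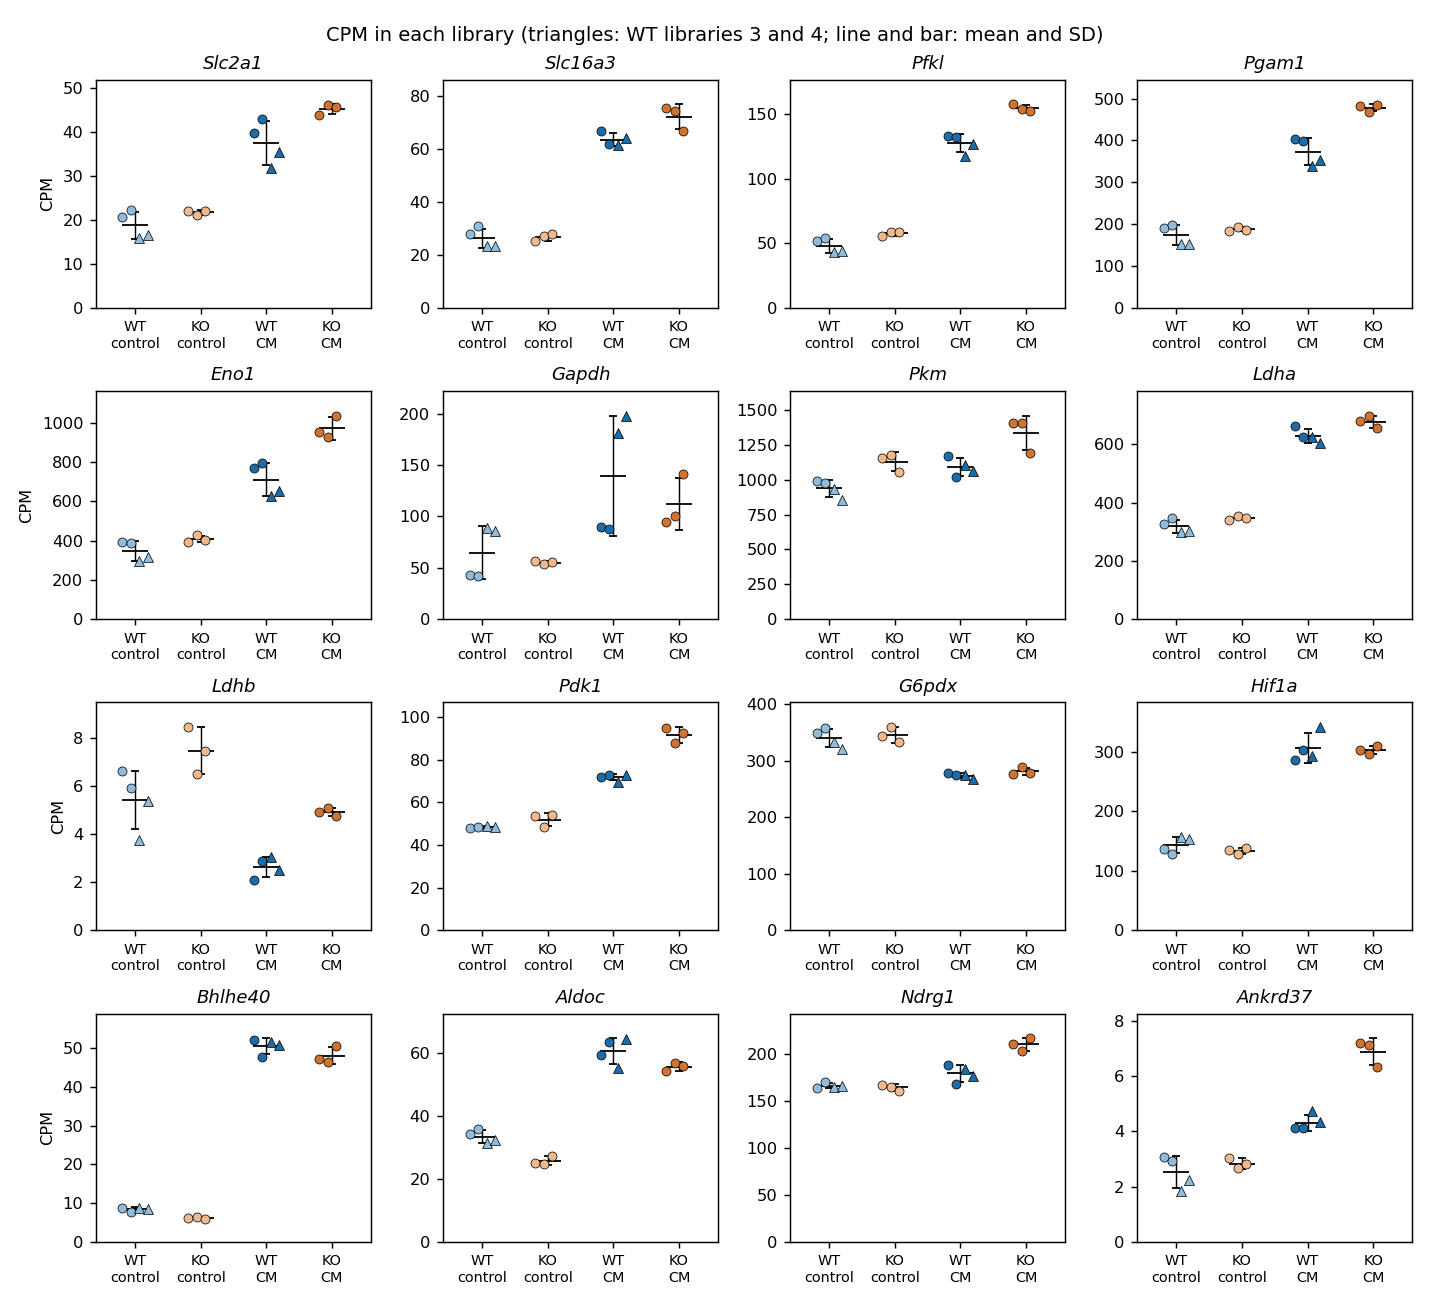
CPM (vertical axes, from 0) of 16 genes in each library of the 4 groups; horizontal lines are group means, bars are standard deviations, and triangles are WT libraries 3 and 4. In Gapdh the triangles lie above the WT circles, in Pgam1 and Eno1 they lie below them, and in Bhlhe40 they lie among them.

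The second question was how KO differed from WT in each medium. In CM, 10 of the 36 genes were higher in KO than in WT and none was lower, where 4.59% of all tested genes were called (3.1% higher and 1.49% lower). The median difference of the 36 was 0.14, against 0.0009458 for all tested genes. They are 4 genes of lower glycolysis (Aldoa, Pgk1, Pgam1 and Eno1), the phosphofructokinase Pfkl, 3 genes around pyruvate (Pkm, Ldhb and Pdk1) and the hypoxia genes Ndrg1 and Ankrd37. Hif1a, with 304.0, 296.3 and 309.9 CPM in KO in CM, lay within the WT range (-0.02 ± 0.08, adjusted p = 0.925). All 10 were also called against WT libraries 1 and 2 alone, where 10 members and 3.58% of all tested genes were called. They were called against WT libraries 3 and 4 alone as well, but there 21 members and 35.5% of all tested genes were called. Leaving out single libraries changed more: Ldhb and Pdk1 were called whichever single library was omitted, while the count of the 10 that were kept went down to 2 without KO CM library 1, 3 without WT CM library 4, 5 without WT CM library 3 or KO CM library 2 or 3, and 6 without KO control library 1. In the omissions named, 1.61 to 3.31% of all tested genes were called. With the most-counted exon of each gene in place of the sum over exons, 2 of the 10 were called (Eno1 and Pdk1), beside 3.44% of all tested genes.

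Pdk1 had the smallest p of the 10. It was at 95.1, 87.8 and 92.3 CPM in KO in CM, above all 4 WT libraries (69.8 to 72.8 CPM), a difference of 0.35 ± 0.05 (adjusted p = 0.00142). Ldhb, at 4.92, 5.08 and 4.78 CPM, was also above all WT libraries (2.08 to 3.05 CPM), by 0.89 ± 0.18 (adjusted p = 0.0104). Ldhb was thus the member with the largest difference between the genotypes in CM, and it is the one called gene here that CM lowered. Ankrd37, an ankyrin repeat gene induced by HIF-1, was at 7.20, 7.14 and 6.33 CPM against 4.11 to 4.73 CPM (0.67 ± 0.15, adjusted p = 0.0188, and 0.0581 to 0.0709 without library 4 of WT in CM or library 1 or 2 of KO in CM). Its exons overlap those of Lrp2bp and Ufsp2 on the other strand. Ndrg1 stood at 210.7, 203.6 and 216.9 CPM against 188.2, 168.6, 184.7 and 176.6 CPM (0.23 ± 0.05, adjusted p = 0.0161, and 0.0542 to 0.0833 without WT CM library 4 or KO CM library 1 or 3).

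For the 4 genes of lower glycolysis that were called in CM, the KO libraries again lay above every WT library, while Aldoc, Tpi1 and Gapdh overlapped between the genotypes. Eno1 was at 950.8, 925.7 and 1037 CPM in KO and at 769.1, 792.7, 628.1 and 650.5 CPM in WT (0.45 ± 0.10, adjusted p = 0.0238). With libraries 1 and 2 as the only WT libraries it was 0.32 (adjusted p = 0.00622). Pgk1 was at 526.7, 534.1 and 521.8 CPM against 443.9, 446.4, 353.9 and 376.1 CPM (0.38 ± 0.10, adjusted p = 0.0498), with 0.25 against WT libraries 1 and 2 alone (adjusted p = 0.0103). WT libraries 3 and 4 lay below libraries 1 and 2 in both genes. Pgam1 was at 482.4, 468.5 and 484.0 CPM against 403.2, 399.7, 338.5 and 352.5 CPM (0.36 ± 0.09, adjusted p = 0.0373; 0.26 and adjusted p = 0.00866 against WT libraries 1 and 2). Aldoa was at 1258, 1249 and 1239 CPM against 1076, 1054, 1078 and 1124 CPM (0.21 ± 0.04, adjusted p = 0.0137), and its WT libraries 3 and 4 were not lower. From the most-counted exon of Aldoa, however, the difference was 0 (adjusted p = 0.988), and that gene overlaps Fam57b on the opposite strand. Pgk1 and Pgam1 were not called without WT CM library 3 or 4, without any KO CM library or without any KO control library (adjusted p = 0.0693 to 0.145 and 0.0527 to 0.131), Eno1 without WT CM library 3 or 4 or KO CM library 1 or 3 (0.0631 to 0.123), and Aldoa without KO CM library 1 (0.0531). With only the compared groups in the fit, Aldoa was not called either (adjusted p = 0.0544), nor was Pgk1 with all exon rows, repeats included (0.0577).

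Pfkl and Pkm complete the list. Pfkl was at 157.8, 154.2 and 152.4 CPM in KO in CM, above 117.6 to 133.1 CPM in WT (0.28 ± 0.07, adjusted p = 0.0443). It lay above WT in control medium as well, at 55.6, 58.8 and 58.8 CPM against 43.2 to 53.9 CPM, with a difference that missed the threshold (0.26 ± 0.08, adjusted p = 0.0556; 0.0493 with the replicate number as a block). Against WT libraries 1 and 2 alone it was 0.13 (adjusted p = 0.2). Pkm was at 1411, 1408 and 1194 CPM in KO in CM against 1022 to 1173 CPM in WT (0.29 ± 0.07, adjusted p = 0.0354). Pfkl was lost without any library of WT CM, KO CM or KO control (adjusted p = 0.0522 to 0.139), and Pkm when WT CM library 2, 3 or 4, KO control library 1, or library 1 or 2 of KO in CM was omitted (0.0529 to 0.127).

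In control medium 3 of the 36 genes differed between genotypes, 1 higher and 2 lower in KO, where 5.32% of all tested genes were called (2.82% higher and 2.5% lower), and the median was 0.03. Scaled by library totals alone, the calls over all tested genes went from 375 higher and 333 lower to 605 and 182. Bhlhe40 was at 6.06, 6.52 and 6.00 CPM in KO, below 7.61 to 8.71 CPM in WT (-0.43 ± 0.07, adjusted p = 0.00301). Aldoc was at 25.0, 24.9 and 27.4 CPM, below 31.3 to 35.7 CPM (-0.38 ± 0.07, adjusted p = 0.00635). Neither call was ended by a left-out library, and both were kept with WT libraries 1 and 2 alone (-0.39, adjusted p = 0.0308, and -0.44, adjusted p = 0.00127). Bhlhe40 was not called with only the compared groups in the fit (-0.43, adjusted p = 0.0501), nor Aldoc from its most-counted exon (-0.26, adjusted p = 0.168). Pkm was at 1158, 1179 and 1054 CPM, above 856.0 to 993.1 CPM in WT (0.27 ± 0.07, adjusted p = 0.0489). That call was lost with WT libraries 1 and 2 alone (0.20, adjusted p = 0.152) and without WT control library 3 or 4, WT CM library 2, 3 or 4, any library of KO in control medium or library 1 or 2 of KO in CM (0.0505 to 0.195). Without WT control library 2, 6 members were called, where 13.3% of all tested genes were called, and 5 without WT control library 1, where 4.95% were. Against WT libraries 3 and 4 alone, 21 members were called, 15 higher and 6 lower, where 38.9% of all tested genes were called.

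**Figure D3:**
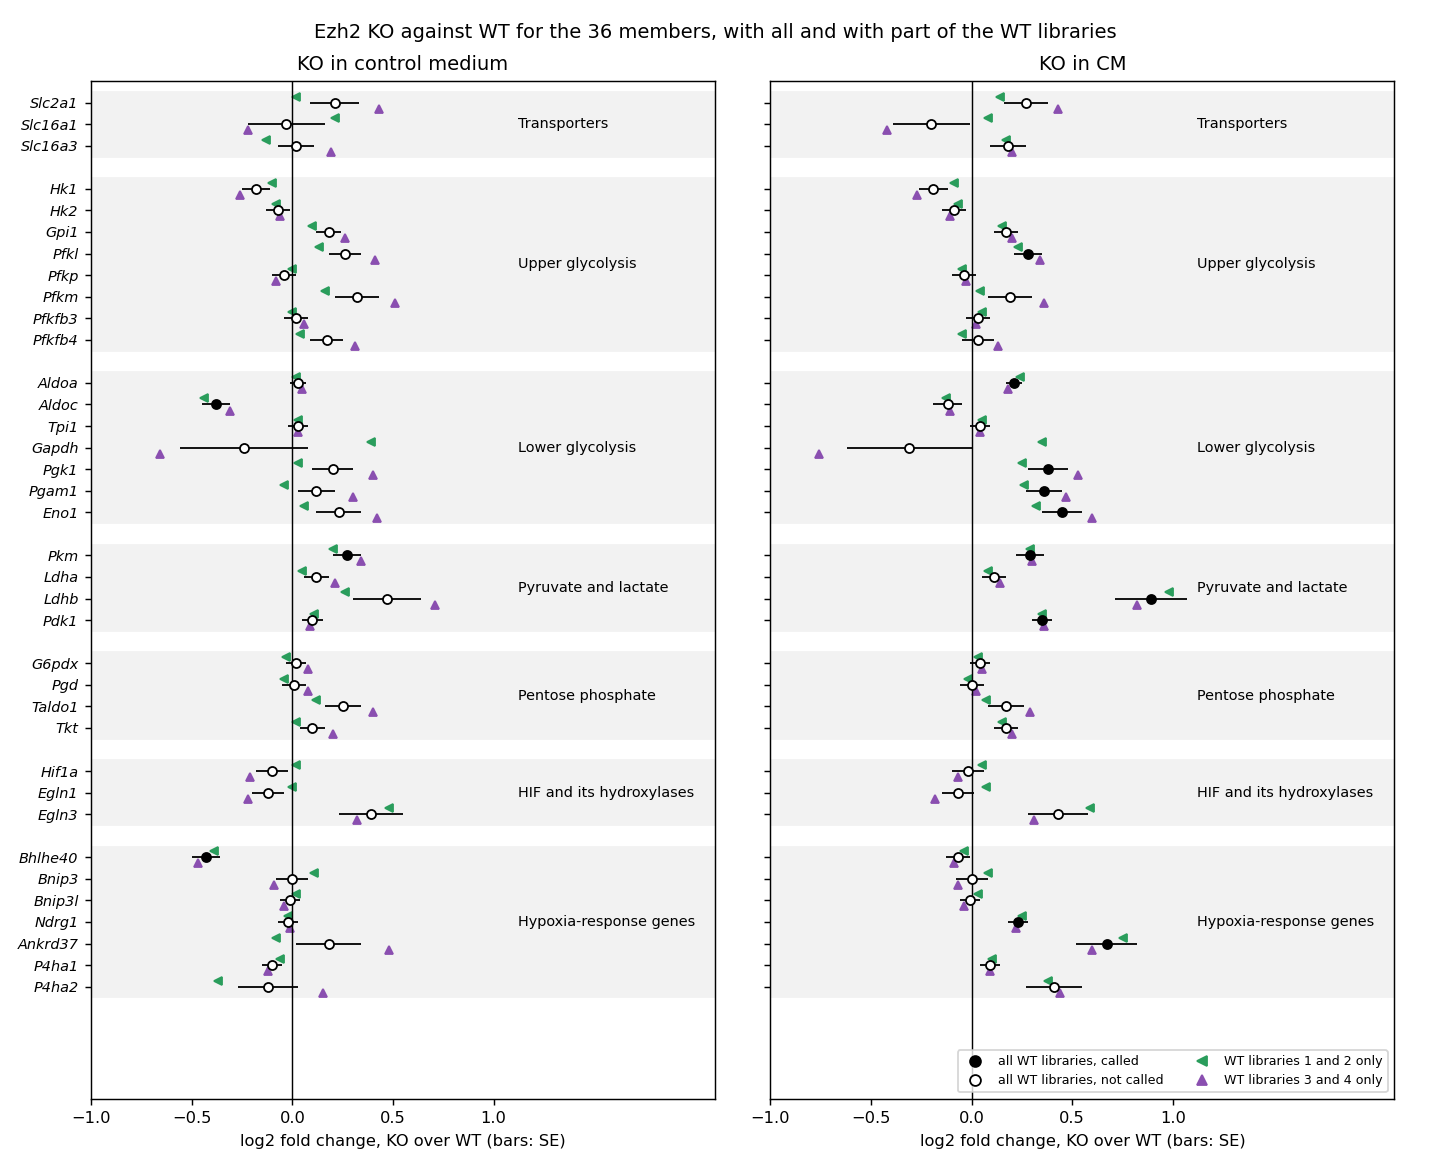
Log2 fold change of KO over WT (horizontal axes) for the 36 genes in control medium (left) and in CM (right); circles with standard error bars use all WT libraries and are filled where the test was passed, and triangles use WT libraries 1 and 2 (green) or 3 and 4 (purple) alone. In CM the 10 filled circles and their triangles all lie right of 0, while for Gapdh and Slc16a1 the triangles lie on opposite sides of 0.

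Whether the response to CM differed between genotypes was tested as the interaction, the change in KO minus that in WT. No member and no other gene was called by edgeR, so 0% of the tested genes were called. At an unadjusted p below 0.05 there were 8 of the 36 (22.2%), Aldoa, Aldoc, Pdk1, Bhlhe40, Ndrg1, Ankrd37, P4ha1 and P4ha2, and 1050 of all tested genes (7.89%). All 8 differences were positive, as were 551 of the 1050. Bhlhe40 gave 0.36 ± 0.09 (adjusted p = 0.33), Pdk1 0.25 ± 0.07 (adjusted p = 0.363) and Ndrg1 0.24 ± 0.07 (adjusted p = 0.355). DESeq2 called 84 genes and 2 of the 36, Aldoa (0.18, adjusted p = 0.0456) and Ndrg1 (0.25, adjusted p = 0.0438). For Bhlhe40 and Aldoc the genotypes stood apart in control medium and overlapped in CM (47.8 to 52.2 CPM in WT and 46.5 to 50.6 CPM in KO for Bhlhe40, 55.4 to 64.4 and 54.2 to 56.9 CPM for Aldoc). Aldoa, Pdk1, Ndrg1 and Ankrd37 overlapped between the genotypes in control medium and were called higher in KO in CM. P4ha1 and P4ha2 were called between the genotypes in neither medium. Since edgeR called no interaction, these patterns describe the libraries and do not show that the responses differed.

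Pkm makes the pyruvate kinases PKM1 and PKM2 from a pair of exons of which a transcript carries one. The exons lie at chr9:59675029-59675195 and chr9:59675568-59675734 on the plus strand of GRCm38 (GENCODE M21), have 167 bases each and differ at 64 positions (61.7% identity), which are in capitals below.
Pkm, upstream exon, in PKM1: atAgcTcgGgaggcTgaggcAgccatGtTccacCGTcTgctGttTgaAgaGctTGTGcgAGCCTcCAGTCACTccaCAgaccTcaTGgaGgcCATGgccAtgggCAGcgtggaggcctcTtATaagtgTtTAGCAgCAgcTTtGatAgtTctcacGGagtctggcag
Pkm, downstream exon, in PKM2: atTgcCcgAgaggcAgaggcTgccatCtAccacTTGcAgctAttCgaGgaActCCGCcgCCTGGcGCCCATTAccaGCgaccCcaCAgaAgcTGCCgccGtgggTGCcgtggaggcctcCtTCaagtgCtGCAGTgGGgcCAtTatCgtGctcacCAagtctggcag
The table lists exons without coordinates. Of its Pkm rows of this length, 2 occur once and were taken as the pair, while another is repeated and was left out. Which of the pair is which cannot be told, and their use was followed as the share of the less-counted one. It held 21.0, 20.9, 18.2 and 19.6% of the counts of the pair in WT in control medium and 16.6, 18.4, 16.6 and 19% in CM. In KO it held 17.4, 16.2 and 18.6% in control medium and 16.9, 18.7 and 17.2% in CM. WT in control medium thus had the highest mean, 19.9 ± 1.3% (SD, n = 4), against 17.4 to 17.6% in the other groups, and its range overlapped each of theirs. The change with CM in WT was -2.3 percentage points (two-sided exact permutation test without pairing, p = 0.0857, adjusted over 4 comparisons 0.229). The share was lower in CM in all 4 same-numbered WT pairs, although a shared origin of same-numbered libraries is not stated. An exact sign permutation test over these pairs gave p = 0.125, the smallest that 4 pairs allow. KO differed from WT in control medium by -2.5 points (exact p = 0.114, adjusted 0.229). With CM in KO the change was 0.2 points and between genotypes in CM 0.0 points (exact p = 0.9 and 0.857, adjusted 0.9). The smallest p these group sizes allow is 0.0286 for 4 against 4, 0.0571 for 3 against 4 and 0.1 for 3 against 3.

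Levels can be set against each other only per exon length, as CPM per kilobase (kb) of distinct exon. On that scale Aldoa was highest in WT in control medium, at 461 ± 7.11 CPM per kb (SD, n = 4), followed by Pkm at 362 ± 23.7, Taldo1 at 294 ± 34.5, Pgd at 203 ± 10.2 and Eno1 at 196 ± 28.7. The last pair overlapped within their spread. Slc16a1 (0.709 ± 0.12) and Egln3 (0.59 ± 0.0706) were lowest. Within families, Hk1 exceeded Hk2 (28.9 against 6.77 CPM per kb), Aldoa exceeded Aldoc (461 against 11.2), Ldha exceeded Ldhb (165 against 4.16) and Slc16a3 exceeded Slc16a1 (10.2 against 0.709). Pfkp was the leading phosphofructokinase in WT in control medium at 25.4 ± 0.788 CPM per kb, ahead of Pfkl at 11.6 ± 1.31 and Pfkm at 9.28 ± 1.36. In CM, Pfkl reached 30.6 ± 1.69 in WT, where Pfkp stood at 29.04 ± 1.45, and 37.2 ± 0.652 in KO, where Pfkp stood at 28.3 ± 0.824. The 2 were thus level within their spread in WT and did not overlap in KO. These levels depend on which exons are counted: from the most-counted exon alone the value in WT in control medium was 0.189 to 3.32 times as large, and Pfkl (2.42 CPM per kb) then lay below Pfkm (3.95) and Pfkp (4.8).

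**Figure D4:**
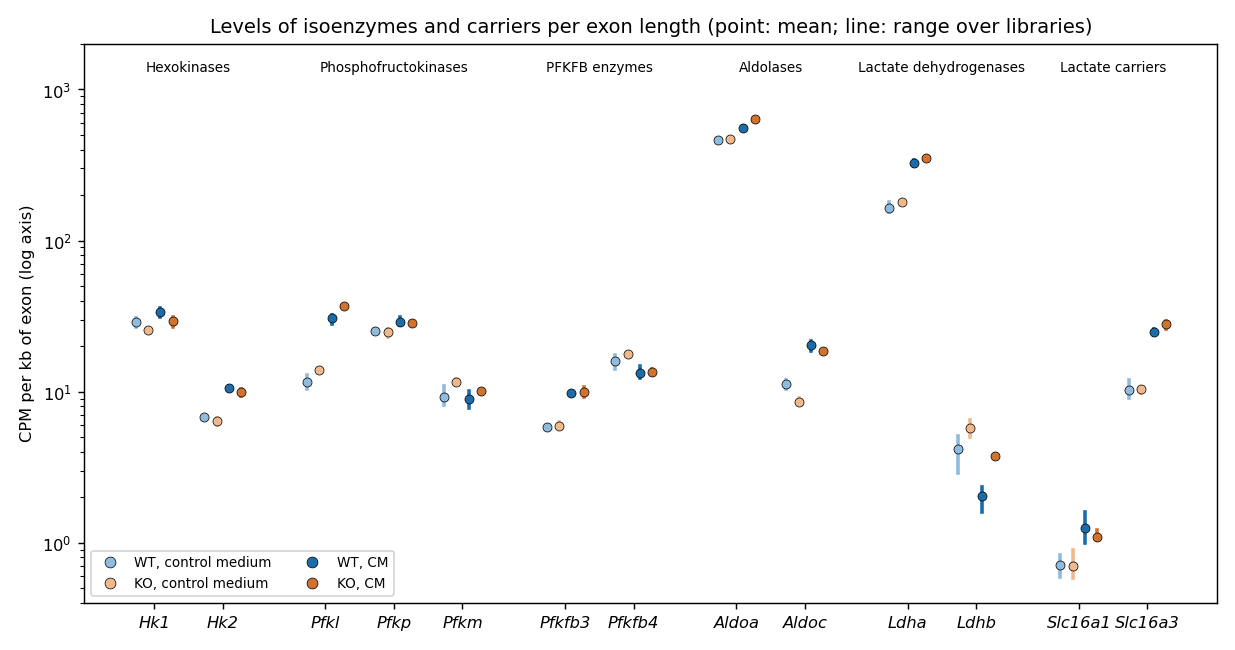
CPM per kb of distinct exon (vertical log axis) of isoenzymes and carriers in the 4 groups; points are means and lines span the libraries of a group. Pfkl moves from below Pfkp in control medium to level with or above it in CM, and Ldha and Ldhb move in opposite directions.

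The rest of the pathway was read from other lists of genes, whose counts stand against 37.3% of all tested genes called with CM in WT (19.3% higher and 18% lower), 38.1% in KO (20% higher and 18.2% lower), and 5.32% and 4.59% called between genotypes in control medium and in CM. A count near these shares is no result about a list. Of 20 other tested glycolysis genes, 7 rose with CM in WT and 1 fell (median 0.15), with 7 and 1 in KO. They include the myeloid hexokinase Hk3 (0.58 ± 0.07 in WT and 0.74 ± 0.08 in KO), the transporter Slc2a6 (0.79 ± 0.10 and 0.83 ± 0.12) and mitochondrial glycerol 3-phosphate dehydrogenase Gpd2 (0.45 ± 0.06 and 0.62 ± 0.07). Of 9 other pentose phosphate genes, 3 rose and 1 fell in WT, and 1 rose and 1 fell in KO; the one that fell was H6pd, which does the work of G6pdx inside the endoplasmic reticulum (-0.54 ± 0.06 and -0.50 ± 0.07). Ribokinase Rbks was at 0.47 ± 0.09 and 0.27 ± 0.11, the latter not called, and Rpe, an epimerase of the pathway, rose by 0.24 ± 0.06 and 0.25 ± 0.07, the latter not called without KO CM library 1 (adjusted p = 0.0638) and neither called with library totals alone (0.0501 and 0.108). Of 13 genes of gluconeogenesis and glycogen, 6 rose and 2 fell in WT and 7 rose and 2 fell in KO, led by glycogen phosphorylase Pygl (0.82 ± 0.04 and 0.78 ± 0.05). Phosphoglucomutase Pgm1 rose by 0.63 ± 0.06 and 0.73 ± 0.07, and its relative Pgm2l1 fell (-1.14 ± 0.09 and -0.92 ± 0.10). None of these 3 lists held a gene called between the genotypes in either medium.

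Of 13 genes that take pyruvate into the mitochondria, 3 rose and 3 fell with CM in WT, and 3 rose and 1 fell in KO. Pdha1, the catalytic subunit of pyruvate dehydrogenase, rose by 0.54 ± 0.06 in WT, and Pdp2, which reactivates the enzyme, by 0.48 ± 0.08. Pcx, pyruvate carboxylase, was the gene of this list with a difference between genotypes in both media. It was at 1.67, 1.82, 1.90 and 1.56 CPM in WT and 2.95, 3.19 and 2.97 CPM in KO in control medium (0.81 ± 0.12, adjusted p = 0.00145). In CM it was at 2.81, 2.74, 2.52 and 2.61 CPM against 3.86, 4.36 and 3.80 CPM (0.59 ± 0.11, adjusted p = 0.00943). The KO libraries were above all WT libraries in each medium. Against WT libraries 1 and 2 alone the difference of Pcx was 0.80 in control medium (adjusted p = 0.0149) and 0.54 in CM (adjusted p = 0.0853, not called). From its most-counted exon it was called in neither medium, at -0.25 (adjusted p = 0.714) and 0.50 (adjusted p = 0.37). Chosen after their values were seen, 3 more genes differed: in KO, the pyruvate carrier subunit Mpc2 was higher in control medium (0.30 ± 0.08, adjusted p = 0.0445), the kinase Pdk3 was higher in CM (0.39 ± 0.09, adjusted p = 0.0179) and Dld, shared by several dehydrogenase complexes, was lower in CM (-0.22 ± 0.06, adjusted p = 0.0401). Against WT libraries 1 and 2 alone Pdk3 was called (0.42, adjusted p = 0.0411), while Mpc2 (0.21, adjusted p = 0.181) and Dld (-0.15, adjusted p = 0.153) were not. Mpc2 was also not called in any omission of a single library except WT control library 2 and WT CM libraries 2 and 3 (0.0503 to 0.143 where lost), nor Dld without WT CM library 3 or 4 or any KO library (0.0552 to 0.155). The call of Pdk3 was lost without WT CM library 3 (adjusted p = 0.0549) or KO CM library 3 (0.118), with only the compared groups (0.0544) and from its most-counted exon (0.06, adjusted p = 0.854).

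Of 26 other hypoxia-response genes, 13 rose and 4 fell in WT (median 0.35) and 10 rose and 4 fell in KO (median 0.18). Rbpj, the DNA-binding partner of Notch, rose by 1.61 ± 0.06 and 1.86 ± 0.07, Narf by 0.83 ± 0.06 and 0.77 ± 0.07, and Mif, a macrophage cytokine, by 0.94 ± 0.08 and 0.89 ± 0.10. Between the genotypes 2 were higher and 3 lower in KO in control medium, and 1 was higher and 1 lower in CM; the 2 described next were chosen after their values were seen. The others, in control medium, were Plod2 (0.60 ± 0.13, adjusted p = 0.0172), Lox (-1.07 ± 0.27, adjusted p = 0.038) and Rbpj (-0.29 ± 0.06, adjusted p = 0.0151). Against WT libraries 1 and 2 alone Plod2 was called (0.72, adjusted p = 0.00889), while Lox (-0.66, adjusted p = 0.269) and Rbpj (-0.21, adjusted p = 0.0609) were not. Plod2 was not called without WT control library 3 or KO control library 1 or 3 (adjusted p = 0.0572, 0.0881 and 0.0544), Rbpj without KO control library 2 or 3 (0.0727 and 0.0735), and Lox without WT control library 3 or 4, KO CM library 2 or any KO control library (0.0513 to 0.158). Vegfa, the angiogenic factor that is a classic target of HIF-1, was lower in KO in both media: 54.2, 54.1 and 53.4 CPM against 70.5 to 84.0 CPM in control medium (-0.52 ± 0.08, adjusted p = 0.00216) and 94.2, 91.2 and 87.0 CPM against 106.9 to 131.0 CPM in CM (-0.37 ± 0.08, adjusted p = 0.0166). Vegfa was called against WT libraries 1 and 2 alone in both media (-0.39, adjusted p = 0.000674, and -0.25, adjusted p = 0.016), and in CM not without WT CM library 4 (0.0526) or KO CM library 2 or 3 (0.055 and 0.0949). Loxl2, a lysyl oxidase, was at 0 to 0.0501 CPM in the 8 WT libraries and at 0.385 to 1.13 CPM in the 6 KO libraries. Of 11 genes of oxygen sensing and HIF subunits, 5 rose in WT, and 4 rose and 1 fell in KO. Epas1, which encodes HIF-2 alpha, went from 2.30, 1.94, 2.71 and 2.36 CPM to 10.2, 10.5, 11.5 and 13.7 CPM in WT (2.30 ± 0.12, adjusted p = 7.36e-10) and rose by 2.48 ± 0.15 in KO. Arnt2, a possible HIF partner, rose by 1.17 ± 0.35 and 1.58 ± 0.39, and Elob, a subunit of the ligase that removes HIF alpha subunits, by 0.44 ± 0.11 and 0.46 ± 0.12. Of 12 upstream regulators, 2 rose and 1 fell in WT, and 4 rose and 1 fell in KO. Rptor, a subunit of mTORC1, fell (-0.65 ± 0.09 and -0.60 ± 0.11), and Max, the partner of Myc, rose by 0.18 ± 0.05 and 0.28 ± 0.06, and was lower in KO in control medium (-0.22 ± 0.06, adjusted p = 0.0463), a call lost against WT libraries 1 and 2 alone (-0.19, adjusted p = 0.121) and without WT control library 1, 3 or 4, WT CM library 1 or 4, library 1 or 2 of KO in CM or any of KO in control medium (0.051 to 0.144). The rise of Max in WT was not called without WT control library 4 (adjusted p = 0.053) or CM library 3 (0.0536). Mlxipl, the glucose-sensing factor ChREBP, was at 0.0391 to 0.174 CPM in control medium and 1.23 to 1.49 CPM in CM in WT, and at 0.0226 to 0.228 and 1.17 to 2.11 CPM in KO. Its counts were between 1 and 13 per library in control medium, which leaves the size of the rise imprecise.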

How the data were processed

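RNA of 14 libraries (QIAseq Stranded mRNA Select kit, Illumina paired reads of 150 bp) was aligned by the authors to the mm10 genome; the submitters' processing notes name HISAT2 as a tool. The deposited table holds counts per exon, not normalized; the counting tool, annotation and strand setting are not given in the sources used here. It has 427386 exon rows, of which 196941 repeat another row and hold 48.6% of all counts; each distinct row was used once and rows were summed per gene symbol. The 36 genes and all lists were chosen with earlier results of these data known. Genes were named by a rule: up to 3 per role or list with the smallest p for CM in WT, and every member called between genotypes. The remaining members are given so that all 36 are accounted for.

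Gene counts were fitted with edgeR 4.0.16 (R 4.3.3; TMM factors, filterByExpr, minimum count 10; 4 group means over all 14 libraries, glmQLFit and glmQLFTest) and adjusted over all tested genes. Standard errors are approximate, from the fold change and its F value. The share of the less-counted Pkm exon took the place of a planned share of the PKM1 exon, since the table names neither; it was compared with scipy 1.17.1, near-identical transcripts were sought with minimap2 2.31, and DESeq2 1.42.0 served as an alternative. The code was tested on simulated data. Deviations of same-numbered WT libraries from their group means correlated at 0.33, 0.35, 0.47 and 0.46, and the numbers were used as a block in an alternative fit. Differently numbered WT libraries within 1 and 2 or within 3 and 4 correlated at 0.31 to 0.46, and across these sets at -0.43 to -0.35. The values thus follow the library sets and do not single out same-numbered pairs. In KO, same-numbered libraries correlated at 0, -0.04 and 0.05. Alternatives covered scaling, filters, tool, samples, the replicate block, exon rows and each library left out.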

Additional observations from a re-analysis of the deposited data

Results flagged for a closer look

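Bhlhe40 in WT in control medium had 1 library apart from the others: library 2 was at 7.611 CPM, while the other 3 lay between 8.55 and 8.71 CPM. The gap is a large part of the range of that group by Dixon's test. It was the only one among 72 groups of 4 libraries tested, which is fewer than the about 1 in 20 that chance alone gives. All 3 KO libraries, at 6.00 to 6.52 CPM, lay below it.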

How the results depend on the processing

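Called members kept their direction under every alternative run except for Aldoa in KO against WT in CM, which was at 0 from the most-counted exon. With CM, 31 to 33 members were called in WT with 1 library left out (28 to 30 higher, 3 lower; 4498 to 4949 of all genes) and 29 to 33 in KO (26 to 30 higher, 2 to 3 lower; 4297 to 5218 of all genes). Members called lower with CM in KO were 5 with only the compared groups, with the replicate block, and with WT libraries 1 and 2 or 3 and 4 only. In these settings 46.9 to 50.1% of all tested genes were called. From the most-counted exon, Aldoa, Gapdh, Pfkp and Pkm were not called in WT, and Bnip3, G6pdx, Gapdh, Pfkp and Pkm not in KO (adjusted p = 0.0534 to 0.359). Pkm in WT was not called with WT libraries 1 and 2 only (0.15, adjusted p = 0.171), Pfkp in WT with WT libraries 3 and 4 only (0.15, 0.0624), or Hk1 in KO with all exon rows (0.20, 0.0518).

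For KO in control medium, 5 members (3 higher) were called with library totals alone, beside 787 of all genes. DESeq2 called 6 members (4 higher) and 1501 of all genes. With only the compared groups, 1 member (0 higher, 1 lower) and 283 of all genes were called. WT libraries 3 and 4 only gave 21 members (15 higher, 6 lower) and 5246 of all genes. The most-counted exon gave 1 member (0 higher, 1 lower) and 384 of all genes. Of the members, 0 were called higher with DESeq2 size factors, no low-count filter, WT libraries 1 and 2 only or all exon rows. In these settings 367, 304, 294 and 333 of all genes were called higher, in that order. With a mean of 1 CPM or more, 2 members and 377 of all genes were called higher. With 1 library left out, 2 to 6 were called (0 to 4 higher, 2 lower; 224 to 1769 of all genes). For KO in CM, WT libraries 3 and 4 only gave 21 members (18 higher, 3 lower) and 4791 of all genes. The most-counted exon gave 2 members, both higher, and 430 of all genes. Only the compared groups gave 7 members and 425 of all genes. Aldoa, Ndrg1 and Pkm were then lost (adjusted p = 0.0544, 0.0633 and 0.0621). All exon rows gave 9 members (Pgk1 lost) and 577 of all genes. DESeq2 called 11 members and 1219 of all genes. With 1 library left out, 2 to 10 were called (2 to 10 higher, 0 lower; 217 to 721 of all genes). For the interaction, DESeq2 called 2 members, both higher, and 84 genes; 11 genes were called with WT libraries 1 and 2 only, 54 with WT libraries 3 and 4 only, and 0 to 2 with 1 library left out, with 0 members. The cause of these shifts was not tested.

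For KO against WT the replicate number was a block over both genotypes, although same-numbered WT and KO libraries correlated at only -0.1 to 0.12. It gave 5 members in KO in control medium (3 higher, with Pfkl at 0.25 and Pfkm at 0.27 added), beside 826 of all genes (6.21%). For CM and the interaction the number was a block within each genotype, also in KO, where same-numbered libraries correlated at 0, -0.04 and 0.05. It gave 205 of all genes for the interaction. Taldo1 in both genotypes, Ndrg1 in WT and Pfkm in KO (-0.19) were added to the calls with CM, where 49.4% of all tested genes were called in WT and 50.1% in KO. No other call of a member changed. The Pkm exon share changed by -2.9 to -1.9 points with CM in WT, -0.4 to 0.8 with CM in KO, -3.1 to -1.9 for KO in control medium and -0.6 to 0.4 for KO in CM with 1 library left out. For the interaction the compared groups are all 4, so that setting gave no separate value. From the most-counted exon, Pcx outside the members turned to -0.25 for KO in control medium.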
